A study of Mus musculus with 16 samples.

Results

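The comparison of the central nervous system (CNS) with bone marrow (BM) in LK leukaemia cells used 8 of the 16 RNA libraries of the series, 4 from each site, chosen by their labels. All groups shared 1 genotype, labelled miR-128a overexpressing and Kmt2a-AFF1+, in mice that model pro-B acute lymphoblastic leukaemia (ALL) of infancy. LK cells, also labelled LK/CLP, were sorted as leukaemia-propagating cells that lacked lineage markers and Sca1 and carried cKit. The 8 LSK libraries (lineage-negative, Sca1, cKit and IL7R positive; 4 BM and 4 CNS) of the same genotype served as a second sorted type. The labels give no treatment or time point, no age or sex, and no promoter or vector for the transgene, and do not say whether animals were pooled or whether LK and LSK libraries shared animals. Each CNS library shares the stem of its description and its title number with 1 BM library, which gives 4 stems (LK 1 to LK 4). What a stem stands for is not labelled, so p-values measure the spread between these libraries and stems, which may be partly technical.

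Acute lymphoblastic leukaemia arises from early lymphoid cells and can settle in the CNS, where cells lie largely in the meninges and the cerebrospinal fluid. That compartment is poor in lipid and protein compared with blood, and cells reach it from blood with the help of adhesion molecules. Kmt2a fusions act on chromatin in early blood cells, and early lymphoid progenitors switch on the recombinase genes and terminal transferase while they assemble antigen receptors. A question set by the design is which transcripts differ with the site in the same sorted type.

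Depth ran from 19.9 to 29.2 M counts per library, and 35316 to 45027 identifiers had at least 1 count. Each level is in counts-per-million (CPM), with library sizes scaled by TMM factors. A background index was formed from the 1969 receptor genes of smell and pheromone sensing (Olfr and Vmnr families), seldom active outside sensory neurons. The index was 274, 275, 288 and 199 CPM in BM LK 1 to 4 and 348, 228, 376 and 558 CPM in CNS LK 1 to 4. It was higher in the CNS library of 3 of 4 stems (mean log2 difference 0.49, exact two-sided permutation p 0.114, adjusted p 0.748 over 12 library measures), with CNS LK 4 highest. The same 12 measures included the summed levels of 7 lists of markers of other cell types, and no measure had an adjusted p below 0.748. With 4 libraries against 4, the smallest possible permutation p is 0.0286. A measure that separated the sites fully on its own could not pass after adjustment over 12 measures. These adjusted p therefore cannot decide whether a measure differed between sites.

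The labelled cell type was checked against markers of pro-B cells, and several defining ones were at or near background. Pax5 and Ebf1, the factors that commit cells to the B lineage, had 79 and 120 counts over the 8 libraries together. Per kilobase of exon, Pax5 lay between 0.00897 and 0.12 CPM and Ebf1 between 0.0129 and 0.145 CPM, while the receptor genes lay between 0.0331 and 0.0926 CPM. The surrogate light chain genes Vpreb1 and Igll1 reached 0.248 and 0.219 CPM per kilobase at most. Other members of the B-lineage list were higher: Pou2af1, a transcriptional coactivator of B cells, lay between 14.4 and 23.2 CPM per kilobase and Cd72, a B-cell surface protein, between 9.47 and 13.6. Vpreb3 lay between 1.08 and 2.35, and Cd79a, a chain of the B-cell receptor complex, reached 0.882. Genes of early T-lineage cells were high on the same scale: the transcription factor Tcf7 lay between 209.5 and 252 CPM per kilobase, the receptor Notch1 between 82.0 and 115, the surface protein Thy1 between 103 and 121 and the kinase Lck between 69.6 and 80.4. The recombinase gene Rag1 lay between 32.2 and 51.4 CPM per kilobase. Cd3e and Cd3d, parts of the mature T-cell receptor complex, did not exceed 0.115 and 0.440 CPM per kilobase, and Trac, its alpha constant gene, did not exceed 0.341 CPM in any LK library. The cells are therefore called LK cells here, by their sort, and given no lineage name.

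**Figure D1:**
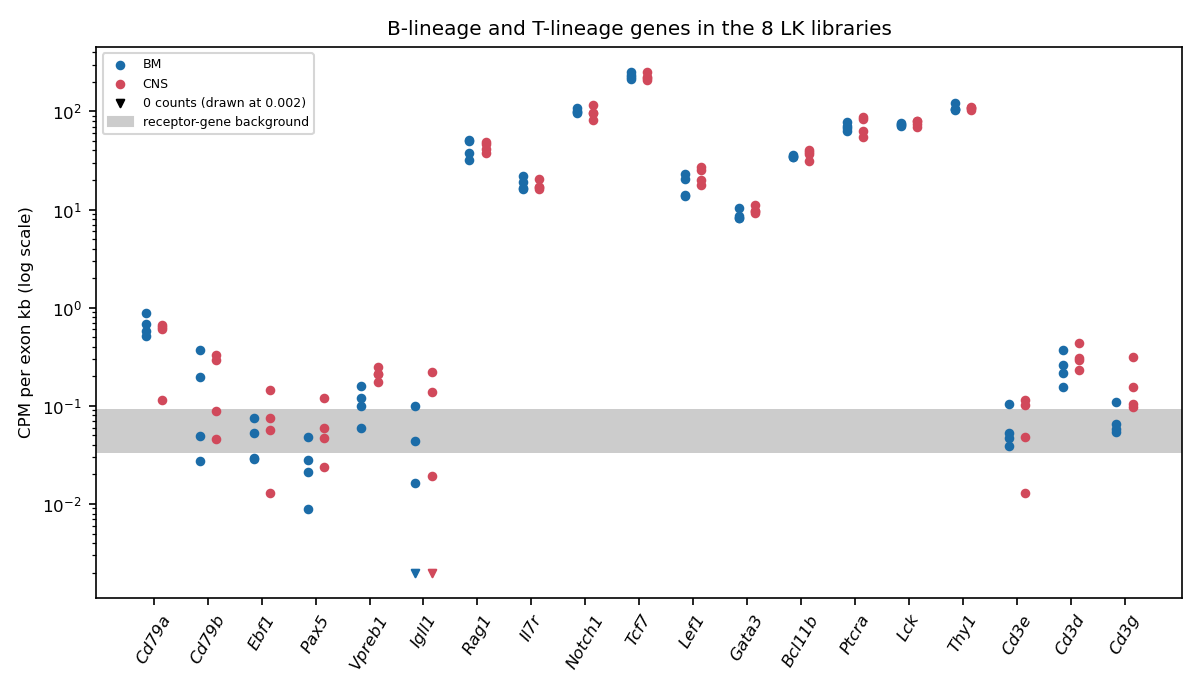
Level of B-lineage and T-lineage genes in CPM per kilobase of exon (log axis) in the 4 BM (blue) and 4 CNS (red) LK libraries, with triangles for libraries at 0 counts and a grey band for the range of the receptor-gene background (0.0331 to 0.0926). Pax5, Ebf1 and Cd3e lie in or near the band, while Rag1, Notch1, Tcf7, Thy1 and Lck lie far above it in every library.

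The sort antigens were read as a check of the labels. Kit (cKit) had a median of 139.9 CPM in BM and 130.1 CPM in CNS libraries, and Il7r had 83.0 and 79.7 CPM. Ly6a (Sca1) was low, with medians of 0.526 and 0.647 CPM. The fusion partner genes Kmt2a (medians 234 and 222 CPM) and Aff1 (233 and 241 CPM), and R3hdm1 (94.5 and 91.8 CPM) and Arpp21 (245 and 231 CPM), which host miR-128, were all detected. These counts do not separate endogenous from introduced transcripts, and the mature microRNA was not measured. None of the 8 genes of this list was called between sites in the edgeR quasi-likelihood fits.

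Between sites, few transcripts were called in LK cells, and a gene that was not called was not shown to be unchanged. Apart from Ctla4 and Gm6093, which had few counts, the log2 changes of the called genes lay between −0.83 and 1.00. Terminal transferase (Dntt), the cholesterol genes Soat1 and Abcg1, the transcription factor Lef1 and the proteoglycan Gpc1 were higher in the CNS libraries, and vimentin (Vim), galectin-1 (Lgals1), the carnitine transferase Cpt1a and the homing integrin chain Itgb7 were lower. These calls come from the edgeR quasi-likelihood test with the stem as a block (paired fit), which called 26 of 18238 genes at an adjusted p of at most 0.05 (0.143%). Of these, 11 were higher in the CNS (0.0603%) and 15 lower (0.0822%). All 26 moved the same way in 4 of 4 stems, as 14.4% of all genes tested did, and in 10 of the 26 the BM and CNS libraries did not overlap, as in 2.08% of all genes. In bulk samples, fewer cells of a type and less RNA per cell cannot be told apart.

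The unpaired edgeR fit, with no block, called 0 of 18238 genes (673 at an unadjusted p of at most 0.05, 3.69%), and DESeq2 without the block called 5. A limma fit with the stem as a random effect also called 0, with a smallest adjusted p of 0.228. It changes the test as well as the block. The count of paired calls was 4 without LK 2, 11 without LK 3, 15 without LK 1 and 52 without LK 4. Dntt and Vim were called whichever stem was left out. Ctla4 was called without LK 1, LK 2 or LK 4 and fell under the count minimum, so was not tested, without LK 3. With the background index as a covariate, 11 of the 26 remained called: Dntt, Vim, Ctla4, Soat1, Gm6093, Gm37534, D130019J16Rik, Lgals1, Gpc1, Abcg1 and Rab11fip4.

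**Figure D2:**
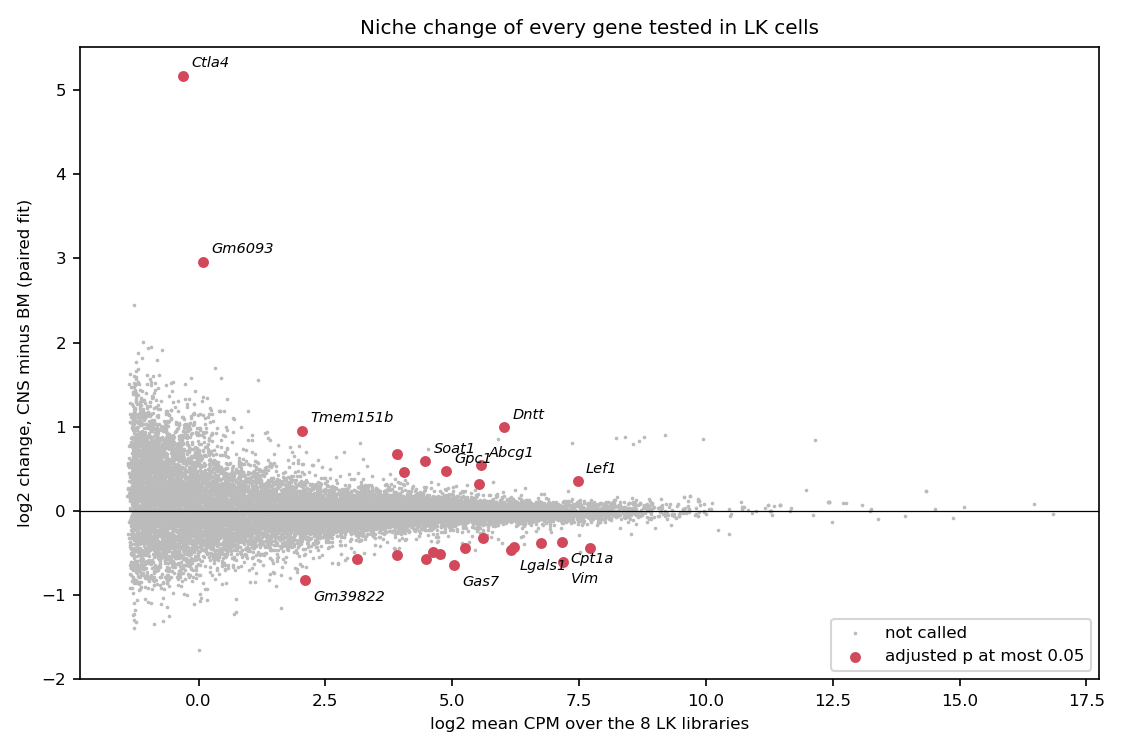
Paired log2 change (CNS minus BM) of each of the 18238 genes tested against its log2 mean CPM over the 8 LK libraries, with the 26 called genes in red. Ctla4 and Gm6093 stand highest at a low level, and the other 24 called genes lie between −0.83 and 1.00.

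Promoter sequences of 4 called genes are printed to show the start regions of genes that rose (Dntt, Lef1, Tiam1) and fell (Vim) together. RefSeq's table for build GRCm38.p6 held promoters for 15 of the 26 genes, and the 250 bases before a transcript start were read. Capitals mark matches to CTTTGA, the letters bound by TCF and LEF factors, and to CACGTG, the E-box, searched on both strands (TCAAAG is the first motif on the other strand).

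Dntt, chr19:41029025-41029274, + strand: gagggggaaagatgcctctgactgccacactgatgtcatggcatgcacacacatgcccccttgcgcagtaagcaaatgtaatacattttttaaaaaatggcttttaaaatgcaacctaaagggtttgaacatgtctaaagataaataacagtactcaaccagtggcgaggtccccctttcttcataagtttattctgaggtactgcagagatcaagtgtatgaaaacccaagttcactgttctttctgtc
Lef1, internal start, chr3:131156044-131156293, + strand: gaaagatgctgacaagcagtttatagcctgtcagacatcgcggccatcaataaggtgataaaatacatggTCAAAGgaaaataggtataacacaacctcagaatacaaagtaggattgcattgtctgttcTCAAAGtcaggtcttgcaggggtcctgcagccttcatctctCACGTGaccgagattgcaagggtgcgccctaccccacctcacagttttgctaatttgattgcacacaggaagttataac
Tiam1, chr16:89974700-89974949, − strand: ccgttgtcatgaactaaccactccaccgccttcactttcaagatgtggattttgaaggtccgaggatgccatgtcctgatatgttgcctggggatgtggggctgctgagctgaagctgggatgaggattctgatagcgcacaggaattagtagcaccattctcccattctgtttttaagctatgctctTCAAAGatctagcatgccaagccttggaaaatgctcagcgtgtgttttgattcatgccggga
Vim, chr2:13574061-13574310, + strand: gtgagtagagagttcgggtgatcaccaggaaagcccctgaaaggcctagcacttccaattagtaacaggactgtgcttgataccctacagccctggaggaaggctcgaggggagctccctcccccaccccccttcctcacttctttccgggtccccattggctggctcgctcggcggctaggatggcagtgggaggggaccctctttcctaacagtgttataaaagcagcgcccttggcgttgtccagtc

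The printed Lef1 window held the TCF/LEF letters at positions −180 and −120 from the start and an E-box at −79, and the printed Tiam1 window held the TCF/LEF letters at −62. The table has 4 windows for Lef1 and 2 for Tiam1, and the others (3 for Lef1 and 1 for Tiam1) held none of the letters searched. CTTTGA was present in 2 of 8 genes called higher with a promoter (Lef1 and Tiam1), in 2 of 7 called lower (Gm39822 and Trpm1) and in 13.4% of the 10552 tested genes with a promoter. CACGTG was present in Lef1 and Trpm1 and in 9.48% of tested genes. TGACTCA, the AP-1 letters, was present in Gm6093 alone among the called genes and in 3.98% of tested genes, and the forkhead GTAAACA, the ETS CCGGAAGT and the serum response element core were in none. A match is a description of the letters, not a bound site.

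Dntt, which encodes the polymerase that adds untemplated nucleotides at antigen receptor joins, had the smallest adjusted p. Its level was 48.0, 50.9, 38.9 and 32.0 CPM in BM LK 1 to 4 and 91.3, 111, 107 and 43.8 CPM in CNS LK 1 to 4. Every CNS library was above its own BM library, but CNS LK 4 lay below BM LK 1 and 2, so the groups overlapped. The paired change was 1.00 ± 0.10 (log2, SE; 1.99-fold, adjusted p 0.000601 in edgeR). Among the 15 recombination genes tested, which include Rag1 and the end-joining genes, Dntt was the 1 call, and 8 were higher and 7 lower (median 0.02, against −0.01 over all genes). Prkdc, the end-joining kinase, had a change of −0.14 (adjusted p 0.719), and Polm, a polymerase related to Dntt, one of 0.24 (adjusted p 0.800).

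Lef1, a partner of beta-catenin and a regulator of lymphoid progenitors, was 123, 202, 122 and 182 CPM in BM LK 1 to 4 and 157, 238, 176 and 221 CPM in CNS LK 1 to 4. The stems LK 2 and LK 4 were high at both sites, and within each stem the CNS library was higher. The change was 0.35 ± 0.06 (1.27-fold, adjusted p 0.0271 in edgeR). Of the 20 T-lineage and Notch genes tested, 11 were higher and 9 lower (median 0.03), Lef1 was called, and 4 had an unadjusted p of at most 0.05, all higher. Over all genes, 6.63% had such a p, 3.48% higher and 3.15% lower. Hes1, a direct Notch target, was 5.19 to 6.84 CPM in BM and 7.43 to 8.77 CPM in CNS libraries, without overlap (0.41, adjusted p 0.389), and Gata3, a T-lineage factor, had 0.17 (adjusted p 0.636). Notch3 had −0.15 (adjusted p 0.763).

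Ctla4, an inhibitory receptor of activated and regulatory T cells, rested on few counts: 0, 0, 4 and 0 in BM LK 1 to 4 and 25, 11, 95 and 14 in CNS LK 1 to 4. All CNS libraries were above all BM libraries, with CNS LK 3 highest at 4.05 CPM. The fitted change of 5.17 ± 0.64 (adjusted p 0.00194 in edgeR) depends on the handling of zeros. The receptor-gene background predicted 16.7% of its counts over the 8 libraries and 257% of those in BM. Gimap4, a GTPase of lymphocytes, was 7.66, 9.21, 20.5 and 18.5 CPM in BM LK 1 to 4 and 11.8, 11.3, 29.99 and 23.9 CPM in CNS LK 1 to 4. Its stems differed more than its sites, and its change was 0.46 ± 0.09 (adjusted p 0.0448).

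Markers of mature T and NK cells were given beside these lymphoid genes. Their summed level was 236 to 291 CPM in BM and 242 to 299 CPM in CNS libraries, mostly from Trbc2, Trbc1, Gzma and Cd2, and 11 of 19 stayed under 1 CPM in all 8 libraries. Cd3g, a chain of the T-cell receptor complex, was 0.177 to 0.358 CPM in BM and 0.317 to 1.03 CPM in CNS libraries (1.15, adjusted p 0.724). It had 81 counts over the 8 libraries, and the receptor-gene background predicted 43.2% of them. The part of other T cells in the Ctla4 counts was not tested.

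**Figure D3:**
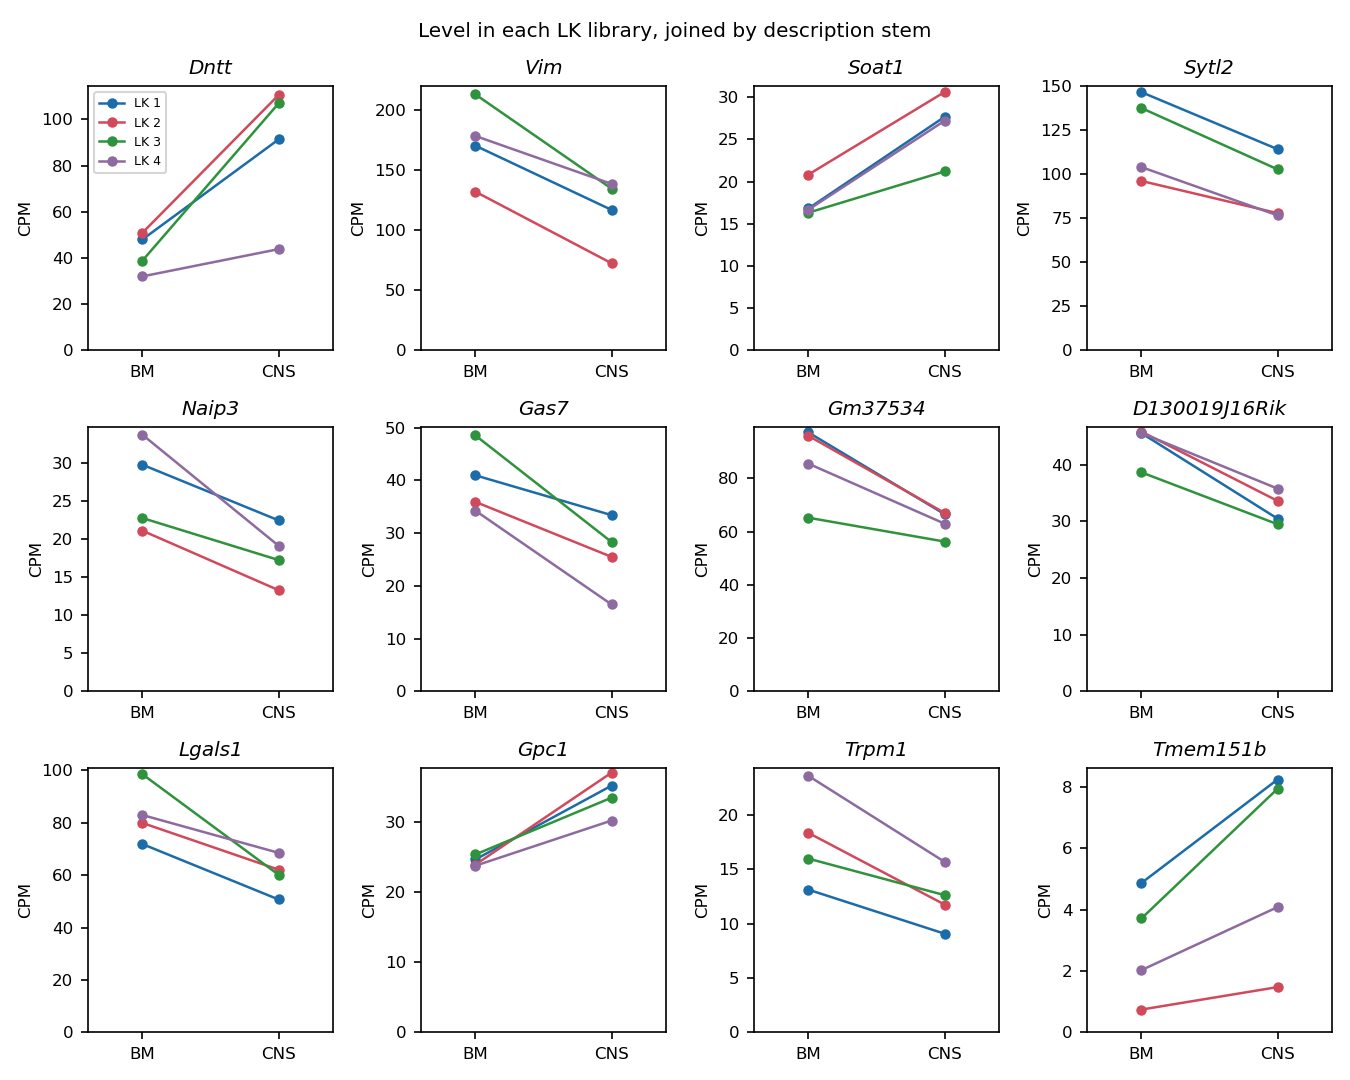
Level in CPM (axis from 0) of the 12 called genes with the smallest p among those with a mean of at least 50 counts, in BM and CNS libraries, with lines joining the libraries of a stem (LK 1 to LK 4). Every line rises for Dntt, Soat1, Gpc1 and Tmem151b and falls for the other 8 genes, while the stems start from different levels.

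Among the called genes, 2 handle cholesterol. Soat1, the enzyme that esterifies cholesterol for storage, was 16.8, 20.8, 16.3 and 16.7 CPM in BM LK 1 to 4 and 27.7, 30.6, 21.2 and 27.2 CPM in CNS LK 1 to 4. The groups did not overlap, and the change was 0.59 ± 0.08 (1.51-fold, adjusted p 0.00379 in edgeR). Abcg1, a transporter that exports sterol, was 38.3, 40.6, 37.0 and 35.5 CPM in BM LK 1 to 4 and 67.2, 52.6, 68.1 and 38.2 CPM in CNS LK 1 to 4. The rise was small in LK 4, where CNS fell within the BM range, and the change was 0.54 ± 0.10 (1.46-fold, adjusted p 0.0305 in edgeR, 0.477 in DESeq2). Of 31 cholesterol genes tested, 10 were higher and 21 lower (median −0.05), and 2 were called, both higher. Mylip, which degrades the LDL receptor, had 0.21 (adjusted p 0.735), and Srebf2, the main activator of cholesterol synthesis, was 148 to 169 CPM in BM and 136 to 147 CPM in CNS libraries (−0.11, adjusted p 0.790).

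Fat breakdown and fat synthesis genes were given from lists of their own. Cpt1a, which commits fatty acids to entry into mitochondria, was 165, 146, 165 and 171 CPM in BM LK 1 to 4 and 141, 124, 126 and 111 CPM in CNS LK 1 to 4. The groups did not overlap, and the change was −0.37 ± 0.07 (1.29-fold lower, adjusted p 0.0305 in edgeR). With the background index as a covariate it was −0.26, with an adjusted p of 0.570. Of the 20 carnitine shuttle and oxidation genes tested, 6 were higher and 14 lower (median −0.04), with Cpt1a the 1 call. Hadh (−0.18, adjusted p 0.629) and Hadhb (−0.17, adjusted p 0.700), enzymes of the oxidation cycle, were not called. Of 18 synthesis and desaturation genes tested, 12 were higher and 6 lower, 0 were called (4 at an unadjusted p of at most 0.05), and the desaturase Scd2 had the smallest p (0.16, adjusted p 0.534). Over all genes, 6.63% had an unadjusted p of at most 0.05 in the paired fit.

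Vimentin and galectin-1 were among the genes that fell. Vim, an intermediate filament protein of motile cells, was 170, 132, 213 and 178 CPM in BM LK 1 to 4 and 117, 72.4, 134 and 138 CPM in CNS LK 1 to 4. Each stem fell, but CNS LK 3 and 4 stood above BM LK 2. The change was −0.61 ± 0.07 (1.52-fold lower, adjusted p 0.00103 in edgeR). Lgals1, a secreted galactose-binding lectin, was 71.8, 79.9, 98.4 and 82.9 CPM in BM LK 1 to 4 and 50.7, 62.1, 60.1 and 68.5 CPM in CNS LK 1 to 4. Its groups did not overlap (−0.46 ± 0.07, adjusted p 0.00565). Of the 12 vimentin, galectin, S100 and annexin genes tested, 2 were higher and 10 lower, 2 were called, both lower, and the median was −0.17 (stem medians −0.24 to −0.02). At an unadjusted p of at most 0.05 in the paired fit, 1 was higher and 6 were lower, where 6.63% of all genes had such a p. Ahnak, a large scaffold protein, had −0.28 (adjusted p 0.0590), and Lgals9 went the other way at 0.20 (adjusted p 0.382).

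Genes of the actin skeleton were called in both directions. Gas7, an actin-binding adaptor, was 41.0, 35.9, 48.5 and 34.3 CPM in BM LK 1 to 4 and 33.4, 25.5, 28.3 and 16.5 CPM in CNS LK 1 to 4, without overlap, and fell most in LK 4 (−0.65 ± 0.09, adjusted p 0.00565 in edgeR). Tiam1, an exchange factor that activates Rac, was 38.3, 38.3, 46.2 and 41.9 CPM in BM LK 1 to 4 and 49.3, 46.8, 54.3 and 55.0 CPM in CNS LK 1 to 4. All CNS libraries were above all BM libraries (0.32 ± 0.06, adjusted p 0.0448). Akap12, a scaffold for protein kinase A, was 31.9 to 73.1 CPM in BM and 26.7 to 59.2 CPM in CNS libraries, with a wider spread between stems than between sites (−0.32 ± 0.06, adjusted p 0.0446).

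Itgb7, the chain that pairs with alpha-4 or alpha-E integrin and directs lymphocytes to mucosa, was 28.5, 23.6, 34.4 and 27.4 CPM in BM LK 1 to 4 and 24.02, 16.6, 26.5 and 15.2 CPM in CNS LK 1 to 4. The drop was largest in LK 4, and the groups overlapped (−0.49 ± 0.09, adjusted p 0.0305 in edgeR). Of 18 homing and adhesion genes tested, 8 were higher and 10 lower, and Itgb7 was the 1 call. Cd44, the hyaluronan receptor, was 41.0 to 57.9 CPM in BM and 34.7 to 51.0 CPM in CNS libraries (−0.26, adjusted p 0.182), and Cxcr4, the receptor that retains cells in marrow, was 42.7 to 71.8 and 41.6 to 64.4 CPM (−0.18, adjusted p 0.552). Itga6, a laminin receptor chain, had 0.24 (adjusted p 0.676).

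Gpc1, a cell surface heparan sulfate proteoglycan, was tight in BM, at 24.7, 23.9, 25.4 and 23.8 CPM in LK 1 to 4, and was 35.2, 37.0, 33.4 and 30.2 CPM in CNS LK 1 to 4. The groups were well apart, and the change was 0.47 ± 0.07 (1.39-fold, adjusted p 0.00604 in edgeR). Hs6st1, which adds sulfate to heparan chains, was 13.5 to 16.6 CPM in BM and 17.1 to 19.9 CPM in CNS libraries, also without overlap, but did not pass (0.30, adjusted p 0.300). Of 17 heparan sulfate genes tested, 8 were higher and 9 lower, and Gpc1 was the 1 call.

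Other called genes with known products moved by 0.38 to 0.95. Rab11fip4, a Rab11 effector in endosome recycling, was 10.4, 15.5, 7.75 and 11.3 CPM in BM LK 1 to 4 and 13.9, 34.0, 14.04 and 13.5 CPM in CNS LK 1 to 4, with LK 2 far above the rest in the CNS (0.68 ± 0.12, adjusted p 0.0305 in edgeR; log2 change 0.49 without LK 2, not called). Tmem151b, a membrane protein, was 0.744 to 4.87 CPM in BM and 1.48 to 8.24 CPM in CNS libraries (0.95 ± 0.16, adjusted p 0.0181). Sytl2, a Rab27 effector in vesicle transport, was 96.3 to 147 CPM in BM and 76.7 to 114 CPM in CNS libraries (−0.38 ± 0.05, adjusted p 0.00565). Naip5, an innate sensor of flagellin, was 254, 202, 206 and 298 CPM in BM LK 1 to 4 and 233, 129.6, 164 and 185 CPM in CNS LK 1 to 4 (−0.44 ± 0.08, adjusted p 0.0305). Naip3, listed as a pseudogene, was also lower (−0.58 ± 0.08, adjusted p 0.00565), and Naip6 was just outside the threshold (−0.40, adjusted p 0.0590). These near-identical copies may share reads, so their separate values are uncertain.

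Oprk1, the kappa opioid receptor, was 22.0, 28.7, 23.2 and 52.8 CPM in BM LK 1 to 4 and 18.5, 23.8, 12.7 and 33.2 CPM in CNS LK 1 to 4, with LK 4 high at both sites (−0.51 ± 0.09, adjusted p 0.0328 in edgeR). Trpm1, a cation channel gene, was 13.1 to 23.6 CPM in BM and 9.08 to 15.7 CPM in CNS libraries (−0.53 ± 0.09, adjusted p 0.0178). Cmpk2, a mitochondrial nucleotide kinase induced by interferon, was 8.89 to 11.8 CPM in BM and 5.06 to 8.28 CPM in CNS libraries, without overlap (−0.58 ± 0.11, adjusted p 0.0448 in edgeR, 0.0661 in DESeq2). Of 26 type I interferon response genes tested, 10 were higher and 16 lower, with 0 called (2 at an unadjusted p of at most 0.05) and a median of −0.03. Over all genes, 6.63% had such a p in the paired fit.

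Another 4 called identifiers were noncoding or poorly defined. Gm37534 (−0.43 ± 0.06, adjusted p 0.00565 in edgeR) and D130019J16Rik (−0.44 ± 0.06, adjusted p 0.00565) are neighbours inside the same-strand gene Gm4258, next to Mir181a-1, and may not be separate transcripts. D130019J16Rik was 45.5, 45.8, 38.6 and 45.6 CPM in BM LK 1 to 4 and 30.5, 33.6, 29.5 and 35.8 CPM in CNS LK 1 to 4, with no overlap. Gm6093, a long noncoding RNA gene, had 7, 10, 5 and 1 counts in BM LK 1 to 4 and 39, 32, 87 and 14 counts in CNS LK 1 to 4 (2.96 ± 0.43, adjusted p 0.00565), and the receptor-gene background predicted 18.7% of these counts over the 8 libraries and 65.4% of those in BM. Gm39822, a long noncoding RNA gene, was 3.66 to 7.37 CPM in BM and 2.36 to 4.39 CPM in CNS libraries (−0.83 ± 0.15, adjusted p 0.0446 in edgeR, 0.0555 in DESeq2). Exons of Gas7, Gpc1, Tmem151b, Trpm1, Lef1 and Gm6093 overlap a gene on the opposite strand, and use of strand in counting is not given in the sources used here.

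The values nearest the threshold were similar in size to those inside it. Tiam1, Gimap4 and Cmpk2 had the adjusted p nearest to it from inside (0.0448 each), and the next gene outside was Hip1r, a clathrin adaptor (−0.31, adjusted p 0.0553). Pik3r5, a regulatory subunit of PI3K gamma, followed with 0.64 and Adgre5, an adhesion receptor, with −0.37 (adjusted p 0.0590 each).

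The lists of immediate early, hypoxia, ribosomal, cell cycle and respiration genes held no called gene. Of all 18238 genes tested, 8786 were higher, and 6.63% had an unadjusted p of at most 0.05 in the paired fit. Of 21 immediate early genes tested, 8 were higher and 13 lower, 0 were called (8 at an unadjusted p of at most 0.05, 6 of them lower) and the median was −0.10. Klf6 was 6.41 to 11.9 CPM in BM and 4.34 to 6.71 CPM in CNS libraries (−0.63, adjusted p 0.0599), and Klf2, a factor of lymphocyte quiescence, was 3.86, 1.13, 2.00 and 2.31 CPM in BM LK 1 to 4 and 1.32, 0.506, 1.32 and 0.8294 CPM in CNS LK 1 to 4 (−1.20, adjusted p 0.119). Ier5 had 0.28 (adjusted p 0.303). With the background index as a covariate the median of this list was 0.02.

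Hypoxia and glycolysis genes were higher in 28 of 32 tested, with 0 called (5 at an unadjusted p of at most 0.05) and a median of 0.11. The stem medians were 0.29 and 0.25 in LK 1 and LK 2 and −0.04 and −0.14 in LK 3 and LK 4, so the stems did not share a direction. Hk2, the first enzyme of glycolysis, was 26.3, 33.1, 26.7 and 30.4 CPM in BM LK 1 to 4 and 37.5, 40.4, 34.1 and 29.7 CPM in CNS LK 1 to 4 (0.28, adjusted p 0.375), and Pfkfb3, which raises glycolytic flux, had 0.17 (adjusted p 0.534). Ribosomal protein genes were higher in 68 of 76 (median 0.06, 0 called, 3 at an unadjusted p of at most 0.05). Their stem medians ran from −0.03 in LK 3 to 0.11 in LK 2. G2/M genes were higher in 27 of 35 (median 0.07, 0 called, 1 at an unadjusted p of at most 0.05), with stem medians from −0.31 in LK 3 to 0.31 in LK 4. S phase genes were higher in 11 of 36 (median −0.03, 0 called, 1 at an unadjusted p of at most 0.05). Their stem medians ran from −0.19 in LK 3 to 0.08 in LK 4. Oxidative phosphorylation genes were higher in 43 of 74 (median 0.02), with 0 called and 0 at an unadjusted p of at most 0.05. Their stem medians ran from −0.12 in LK 3 to 0.09 in LK 4. Of all 18238 genes tested, 8786 were higher, and 6.63% had an unadjusted p of at most 0.05 in the paired fit.

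Survival, signalling and cell cycle entry genes were not called either. Over all genes, 6.63% had an unadjusted p of at most 0.05 in the paired fit. Of 24 genes of the PI3K and FOXO axis tested, 14 were higher and 10 lower, with 0 called (7 at an unadjusted p of at most 0.05). Irs1, an insulin receptor substrate, was 0.930, 2.23, 0.714 and 0.836 CPM in BM LK 1 to 4 and 2.38, 1.94, 1.79 and 1.73 CPM in CNS LK 1 to 4, higher in 3 of 4 stems (0.82, adjusted p 0.615 in edgeR). Of 17 G1 genes tested, 5 were higher and 12 lower, with 0 called (3 at an unadjusted p of at most 0.05). Cdkn1a, a cell cycle inhibitor, was 1.83, 0.177, 3.62 and 0.677 CPM in BM LK 1 to 4 and 0.739, 0.0422, 0.512 and 0.431 CPM in CNS LK 1 to 4, lower in each stem (−1.66, adjusted p 0.271). Bcl2, which blocks apoptosis, had 0.34 (adjusted p 0.724), and 0 of 10 BCL2 family genes tested were called (1 at an unadjusted p of at most 0.05). Of the 22 B-lineage genes, 12 had enough counts to be tested, 7 were higher and 5 lower, and 0 were called (4 at an unadjusted p of at most 0.05). Cd22, a B-cell receptor inhibitor, was 0.0796 to 0.425 CPM in BM and 0.590 to 1.48 CPM in CNS libraries (1.79, adjusted p 0.350). It had 108 counts over the 8 libraries, and the receptor-gene background predicted 49.9% of them.

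**Figure D4:**
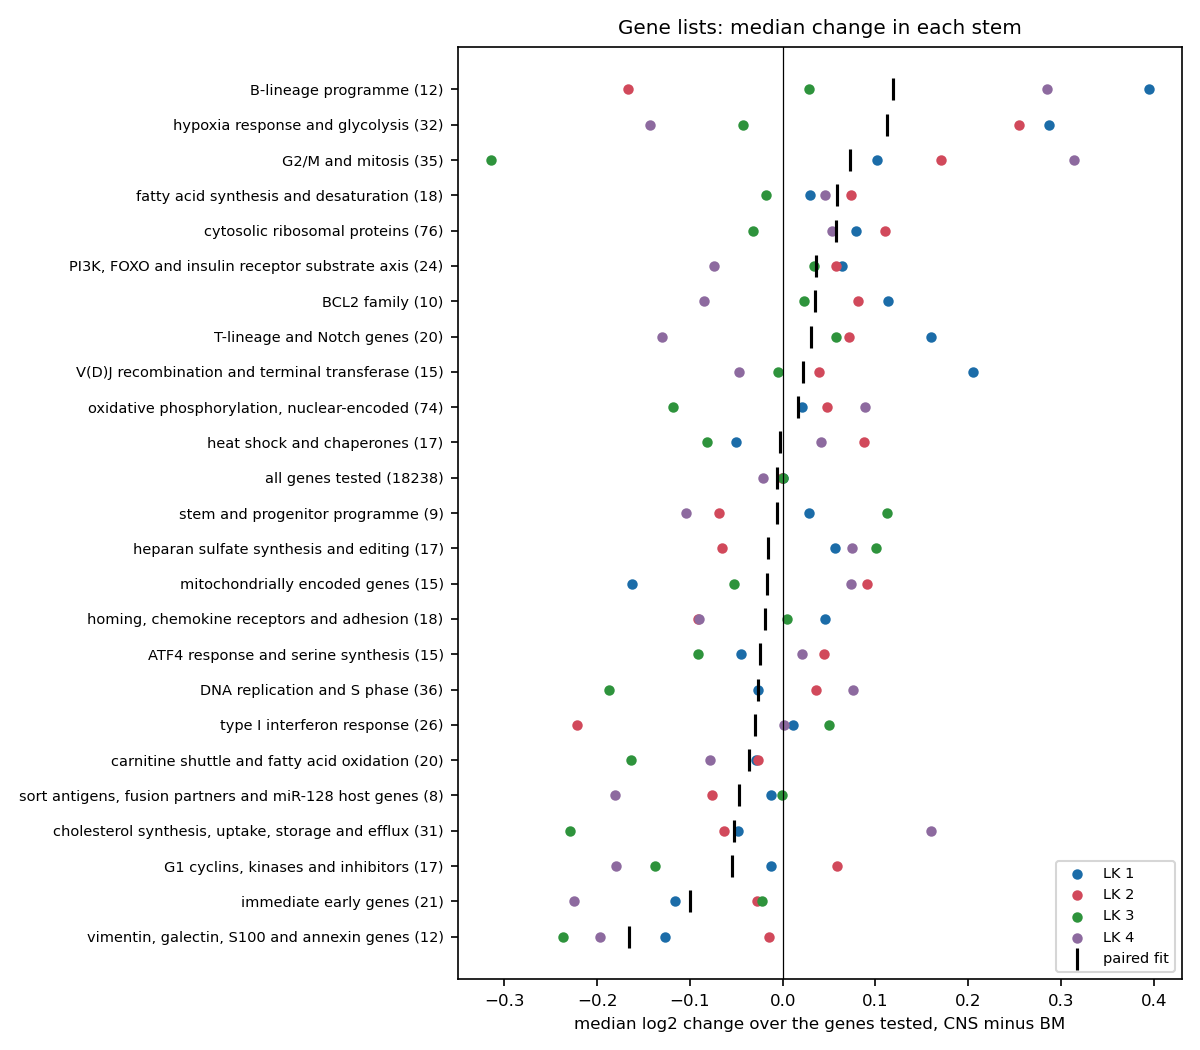
Median log2 change (CNS minus BM) over the tested genes of each list in each stem (coloured points) and in the paired fit (black bars), with the number of genes tested in brackets. The vimentin, immediate early, carnitine shuttle and sort antigen lists are below 0 in all 4 stems, while the hypoxia and G2/M lists lie on both sides of 0.

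Markers of cells that a sort from CNS tissue could carry were low. Microglia markers summed to 10.3 to 17.4 CPM in BM and 11.0 to 16.8 CPM in CNS libraries, with 12 of 18 under 1 CPM in all 8, and their defining genes P2ry12 and Tmem119 did not exceed 0.428 and 0.422 CPM. Neural and glial markers summed to 58.0 to 74.2 CPM in BM and 65.1 to 71.7 CPM in CNS libraries, mostly from Mbp and Tubb3, and the astrocyte gene Gfap did not exceed 0.501 CPM. Myeloid markers summed to 12.2 to 28.4 CPM in BM and 14.5 to 42.9 CPM in CNS libraries. Fcgr3 was the largest part in BM LK 1 (18.8 CPM) and CNS LK 4 (29.3 CPM) and lay between 1.67 and 5.65 CPM in the others. Of the markers tested, 9 of 11 neural and 7 of 9 myeloid genes were higher in the CNS, with medians of 0.35 and 0.36 and 0 called. In edgeR, 1 gene of each list had an unadjusted p of at most 0.05, the neural gene lower and the myeloid gene higher. With the background index as a covariate the neural and myeloid medians were 0.02 and −0.01. Over the markers with a mean of at least 50 counts they were −0.10 and −0.04. Endothelial and stromal markers were lower in the CNS library of 4 of 4 stems (26.0 to 42.6 against 20.04 to 37.0 CPM, adjusted permutation p 0.748), and this sum was mostly Pdgfrb, while 5 of the 8 genes tested were higher (median 0.19). Pdgfrb, a growth factor receptor, was 36.5, 25.4, 36.2 and 21.8 CPM in BM LK 1 to 4 and 31.8, 22.3, 21.8 and 12.1 CPM in CNS LK 1 to 4 (−0.48, adjusted p 0.0730 in edgeR). The part of such cells in the called changes was not tested.

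LSK cells offered the same contrast in libraries that the LK fit did not use. All 26 genes called in LK cells had the same sign in a paired edgeR fit of the 8 LSK libraries. The share of all genes with the same sign in both types was not computed, so this count has no baseline. The labels do not say whether LK and LSK libraries shared animals, so the sets may not be independent. Of the 26, 20 moved in their LK direction in 4 of 4 LSK stems. Among all genes, 20.0% moved in 4 of 4 LSK stems in either direction, which is a looser count. In that fit 7 were also called, 2 higher and 5 lower, where 15 of 19654 genes were called in all (0.0763%; 0.0153% higher and 0.0611% lower). Dntt rose in LSK cells by 0.95 ± 0.09 (log2, SE; adjusted p 0.000531) and Soat1 by 0.64 ± 0.09 (adjusted p 0.00865). Vim changed by −0.69 ± 0.09 (adjusted p 0.00376), Gas7 by −0.72 ± 0.09 (adjusted p 0.00376), Cpt1a by −0.49 ± 0.07 (adjusted p 0.0115), Itgb7 by −0.62 ± 0.10 (adjusted p 0.0337) and Akap12 by −0.48 ± 0.07 (adjusted p 0.0117). Lgals1 had −0.78 ± 0.14 (adjusted p 0.0560), Lef1 0.33 ± 0.06 (0.0619), Tiam1 0.33 ± 0.06 (0.0690) and Abcg1 0.43 ± 0.08 (0.0760), all just outside the threshold.

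The difference between the 2 sorted types was tested as an interaction in all 16 libraries with stems as a block. It called 0 of 18878 genes (590 at an unadjusted p of at most 0.05, 3.13%), so none of the 26 changes was shown to be particular to LK cells. Of the 26, Ctla4, Gm6093, Gm37534, D130019J16Rik and Gm39822 had an unadjusted p of at most 0.05, each with an adjusted p of 1. Gm37534 and D130019J16Rik had −0.10 ± 0.08 and −0.10 ± 0.09 in LSK cells, and Ctla4 had 2.59 ± 0.56 (adjusted p 0.135 in the LSK fit).

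**Figure D5:**
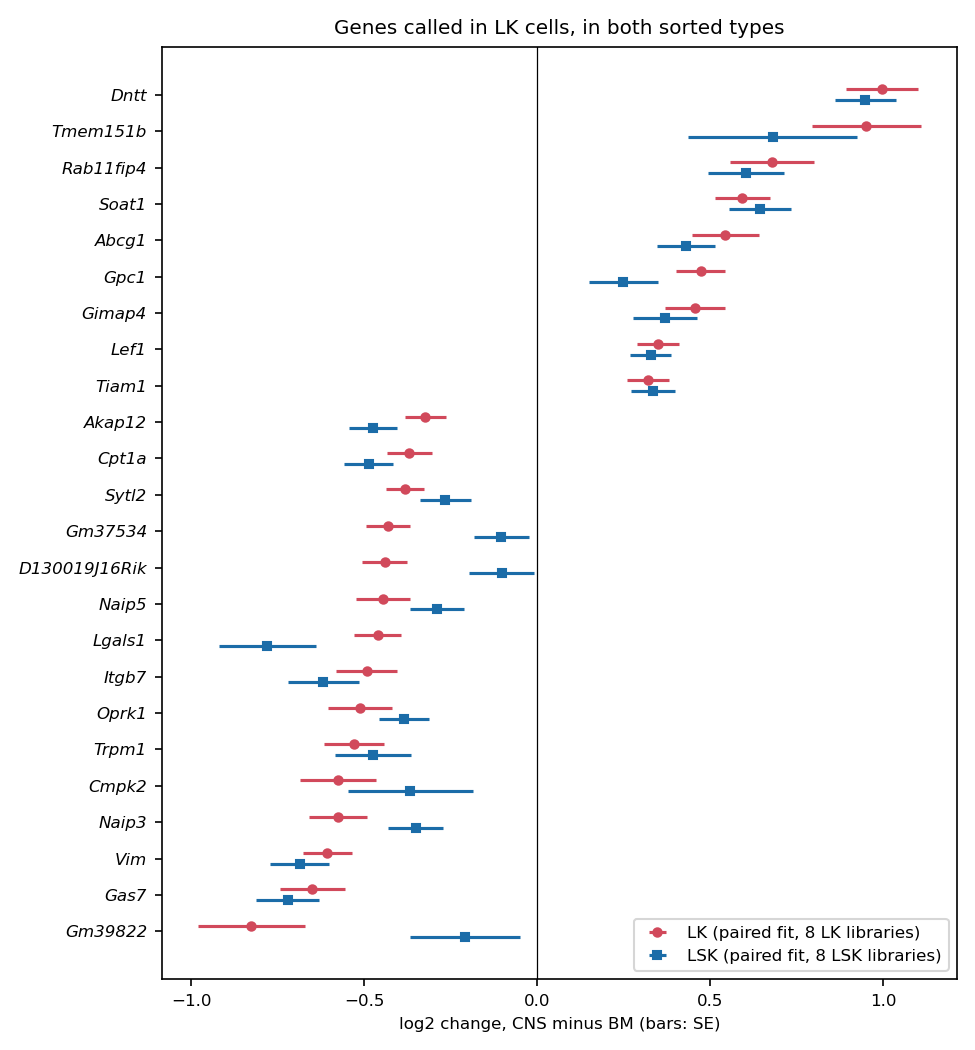
Paired log2 change (CNS minus BM, bars are SE) in LK cells (red circles) and LSK cells (blue squares) of the 24 called genes with a mean of at least 50 counts. All point the same way in both types, and the 2 lie close together for Dntt, Lef1, Soat1 and Tiam1 and apart for Gm37534, D130019J16Rik and Gm39822.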

How the data were processed

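RNA of sorted LK cells from marrow (4 libraries) and CNS (4 libraries) was sequenced after a stranded total RNA preparation, per the labels. The authors deposited whole-number counts for 55414 Ensembl identifiers; totals differ between libraries, so these deposited counts were read as raw counts. The submitters' processing notes name DESeq2 and build GRCm39, with no version; aligner, counter and use of strand are not given in the sources used here. Symbols matched 52081 identifiers (3333 had none and stayed in the library sizes), and 0 columns of samples were left unused.

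A mean count of 10 over the 8 libraries was the minimum for the tests in edgeR 4.0.16 (R 4.3.3; TMM, two-sided quasi-likelihood test, Benjamini-Hochberg at 0.05), with the stem as a block and without. Scripts were tested on simulated data. As a check of pairing, deviations from the group means were correlated between each BM and each CNS library. Among genes with a mean of 10 counts or more, same-stem values ran from 0.0067 to 0.228, with 3 of 4 stems above 0.1. Between libraries of different stems the median was −0.077 and the highest 0.178 (BM LK 4 with CNS LK 2). BM LK 4 had 0.0067 with CNS LK 4, its own stem, and 5 of 8 libraries matched their own stem best. With the minimum raised to 50, same-stem values ran from 0.401 to 0.621, with 4 of 4 stems above 0.1. Different stems then reached 0.176, and 8 of 8 libraries matched their own stem best. The pairing comes from the description stems, so both fits are given. Replicate libraries differed beyond counting noise (11.1 to 42.4 chi-square units per degree).

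Members and gene lists were chosen with earlier results of these data known. Named genes were all calls if at most 30, and 2 to 4 list members with the smallest paired p, with sort, lineage and marker genes as checks. Counts are not independent molecules. Exon lengths, biotypes and neighbours come from GENCODE vM21 (GRCm38), matched by identifier, and promoters from RefSeq. Alternatives were DESeq2 1.42.0, limma 3.58.1 (voom) with the stem as a random effect, other filters, scalings, blocks and left-out libraries. The paired LSK fit and leaving out stems for library measures were added after the data were seen. The values of some genes are not reported here.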

Additional observations from a re-analysis of the deposited data

Results flagged for a closer look

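In each group of 4 libraries, a gap of the highest or lowest library to the next that was large for the group's range was looked for in 66 groups of values; 5 were found, where 3.3 would be by chance (about 1 in 20 groups). Ctla4 was 0.19 CPM in BM LK 3 and 0 in the other BM libraries. Soat1 was 20.8 CPM in BM LK 2, above the 16.3 to 16.8 CPM of the others. D130019J16Rik was 38.6 CPM in BM LK 3, below the 45.5 to 45.8 CPM of the others. Rab11fip4 was 34.0 CPM in CNS LK 2, above 13.5 to 14.04 CPM. The background index was 199 CPM in BM LK 4, below 274 to 288 CPM.

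The change of Rnu12, a spliceosomal RNA gene, went in opposite directions in the sorted types. It was 0.26 in LK cells, higher in 4 of 4 stems (adjusted p 0.158 in edgeR), and −0.17 in LSK cells, lower in 4 of 4 stems (adjusted p 0.443). The difference of 0.435 had an unadjusted interaction p of 0.000135 and an adjusted p of 1. Cldn10, a tight junction protein gene, had the next smallest interaction p (0.000447, adjusted p 1), with −0.13 in LK (adjusted p 0.911) and −0.98 in LSK cells (adjusted p 0.00376).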

How the results depend on the processing

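The count of calls depended on the treatment of stems and of low counts. With the replicate block the unpaired fit's 0 calls became 26, and without it the paired fit's 26 became 0. The limma fit with the block as a random effect, which also changes the test, called 0. With no filter on low counts the unpaired fit called 60, the paired fit 95 and the interaction 20. DESeq2 called 5 without the block. The paired fit called 15 at a mean of at least 50 counts, 12 with all 16 libraries in the fit and 13 with the background index as a covariate, of which 11 were among the 26; TMM replaced by RLE (26), DESeq2 (29) and identifiers with a symbol only (35) stayed within 1.5 times. Leaving out 1 stem gave 4 to 52 paired calls, and leaving out 1 library gave 0 to 1 unpaired calls, the 1 without CNS LK 4. None of the 26 genes changed sign in any of the 13 alternatives of the paired fit that tested it. This was largely fixed in advance, because the alternatives reuse libraries in which all 26 moved the same way in 4 of 4 stems. Ctla4 was under the count minimum at a mean of 50 and without LK 3, and Gm6093 at a mean of 50. Leaving out a stem ended the call of 23 genes at least once, and Dntt and Vim kept theirs in all 4; Ctla4 kept its call in the 3 that tested it. The library measures stayed on the same side of the threshold, but with a stem left out too few libraries remain to cross it. Their direction was not always kept. Total counts, lower in the CNS on average, were higher on average without LK 1. Of 415 list medians recomputed, 409 moved by less than the spread between stems, and 6 by more. The cause of these shifts was not tested.

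With 4 stems the smallest two-sided p is 0.125 for a sign-flip test and 0.0286 for 4 against 4 libraries. After adjustment over 12 library measures, a measure with that p of 0.0286 on its own could not pass. Genes near the receptor background, such as Ctla4 and Gm6093, are limited by their few counts.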

Other observations

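Away from the called genes, 9 predicted gene models at high levels (Gm10717, Gm10718, Gm10719, Gm10720, Gm10721, Gm10722, Gm10800, Gm10801 and Gm11168) had paired changes of 0.79 to 0.90, with adjusted p from 0.389 to 0.570 in edgeR. They were picked after their values were seen, as all uncalled identifiers above 60 CPM in BM with a change above 0.5. Their summed level was 5871, 7472, 7792 and 2552 CPM in BM LK 1 to 4 and 8603, 7018, 10780.0 and 16000.0 CPM in CNS LK 1 to 4. BM LK 4 was lowest and CNS LK 4 highest, as for the background index, and LK 2 alone was lower in the CNS, also as for the index. Their counts may be split between similar copies, and their part in other values was not tested.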
